A study of Homo sapiens with 6 samples.

Results

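The 10 genes described here are targets of YAP and TEAD, or feed back on the pathway that controls them: CCN1, CCN2, ANKRD1, AMOTL1, AMOTL2, AJUBA, LATS2, AXL, TEAD1 and CRIM1. They were chosen by name, not by a measured value, and make up 10 of the 18132 genes that the array could report singly. They are covered by 27 of its 44988 probesets (sets of short probes read as 1 value) that are annotated to exactly 1 gene. For each gene the probeset with the highest mean over all arrays stands for the gene, and the other probesets are given beside it.

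The tumors were xenografts of MDA-MB-231, a long-established human cell line from a breast cancer without hormone receptors or ERBB2 amplification, grown under the skin of both flanks of NOD/SCID mice aged 4 to 6 weeks, an immunodeficient strain, from cells injected with Matrigel. The Epi group received epinephrine, the adrenal stress hormone, under the skin at 2 mg/kg/day from 7 days before the cells were injected, and the PBS group received the same volume of PBS. The sample descriptions also carry a code number, 0 for PBS, 10 for Epi replicates 1 and 3 and 20 for Epi replicate 2, whose meaning the sources used here do not state. RNA came from primary cells taken out of the tumors, 3 arrays per group, and were hybridised to PrimeView, an Affymetrix array with probes for human transcripts, while the stroma of such a tumor is of mouse origin. The comparison asks which transcripts differ between tumors of epinephrine-treated and PBS-treated mice. The labels number the tumors of each group as biological replicates 1 to 3 but do not say whether they came from separate mice, so the p-values measure the spread between these samples only.

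YAP and TAZ (WWTR1) are transcriptional coactivators that do not bind DNA themselves and act mainly through the TEAD factors. The Hippo kinases, MST and then LATS, phosphorylate YAP and TAZ and keep them out of the nucleus, and stiff matrix, cell spreading and low cell density favor their nuclear form. In cultured cells, receptors that signal through cAMP and PKA, epinephrine receptors among them, are known to raise LATS activity, and in breast cancer cells YAP and TAZ are known for their part in growth and stem-like behavior.

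TEAD factors recognize the letters GGAATG. These letters were searched on both strands of RefSeq promoter windows (build GRCh38.p14, 250 bases before to 50 bases after a transcription start). Windows were listed for 7 of the 10 genes, 10 windows in all. CCN1, TEAD1 and CRIM1 were not listed. The letters occurred in 6 of the 10 windows, 1 window in each of 6 genes, and the exception among the 7 genes was AMOTL1. For AMOTL2, AJUBA and AXL, 2 windows each were listed. In these genes the match lay in the window of the downstream start, and the window of the upstream start held 0. Of 34796 distinct windows in the table, 14.0% held at least 1 match, 1.38% at least 2 and 0.126% at least 3. CCN2 held 3 matches and ANKRD1 held 2, so both upstream stretches are printed whole, in the direction of the gene and with the matches in capitals.

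CCN2, chr6:131951373-131951622, minus strand, from position -250 to -1: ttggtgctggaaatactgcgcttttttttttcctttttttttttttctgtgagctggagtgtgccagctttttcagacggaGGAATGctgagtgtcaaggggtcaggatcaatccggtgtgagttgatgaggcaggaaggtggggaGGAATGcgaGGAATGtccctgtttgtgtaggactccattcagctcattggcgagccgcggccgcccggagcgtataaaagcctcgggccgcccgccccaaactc
ANKRD1, chr10:90921088-90921337, minus strand, from position -250 to -1: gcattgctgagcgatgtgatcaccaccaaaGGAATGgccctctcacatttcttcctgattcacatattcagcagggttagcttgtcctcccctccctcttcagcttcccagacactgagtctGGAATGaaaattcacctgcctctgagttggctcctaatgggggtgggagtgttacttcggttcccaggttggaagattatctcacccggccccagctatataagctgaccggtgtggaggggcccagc

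The single matches of 4 further genes are shown with the bases around them, again in the direction of the gene. Capitals mark the letters GGAATG, or CATTCC where the match lies on the other strand. Positions count from the start of the window that held the match.

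AMOTL2, chr3:134374499-134374528, minus strand, match from -69 to -64: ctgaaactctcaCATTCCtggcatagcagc
AJUBA, chr14:22976884-22976913, minus strand, match from -59 to -54: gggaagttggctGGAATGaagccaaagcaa
LATS2, chr13:21061560-21061589, minus strand, match from 10 to 15 after the start: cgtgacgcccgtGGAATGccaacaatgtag
AXL, chr19:41226531-41226560, plus strand, match from -212 to -207: cagactttgcacCATTCCactccctccgct

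In CCN2 the other 2 matches, from -104 to -99 and from -95 to -90, stand next to each other, and the first lies from -169 to -164. In ANKRD1 the matches lie from -220 to -215 and from -128 to -123. The letters TGANTCA, with any base at N, were searched as a loose form of the AP-1 site, whose middle base is C or G. This pattern reads the same on both strands. It occurred in 1 of the 10 windows, that of ANKRD1, outside its GGAATG matches, against 7.73% of all windows by the same pattern. The ANKRD1 match reads tgattca, with T in the middle, so it is not the AP-1 site itself. These matches describe the letters of the windows only.

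The 2 arrays of replicate 1 stood apart from the other 4 in both groups. They correlated with each other at r = 0.982 across genes and with the other 4 at 0.935 to 0.962, while the other 4 correlated among themselves at 0.972 to 0.989. The signal of the 3′ control probeset of ACTB exceeded that of its 5′ probeset by 2.94 (PBS) and 3.17 (Epi) on the log2 scale in replicate 1 and by 1.45 to 1.72 in the others, whereas for GAPDH the same difference was -0.12 (PBS) and -0.37 (Epi) in replicate 1 and 0.15 to 0.28 in the others. The deposited values of the replicate 1 arrays also have at most 6 significant digits, against 9 in the others, and medians of 5.985 (PBS) and 6.051 (Epi) against 6.368 to 6.422. The sources used here do not state whether these 2 arrays were processed together with the other 4. The values of the 10 genes are therefore also given as the difference Epi minus PBS within replicates 1, 2 and 3. Of the markers of the cell line, VIM was high in both groups (14.13 ± 0.24 in PBS and 13.83 ± 0.31 in Epi, SD, n = 3), and CDH1, EPCAM and PGR lay under a mean of 5.69, the 30th percentile of all genes. ESR1 (7.09 in both groups) and ERBB2 (8.57 in PBS and 8.40 in Epi), which this line is known to have at low level, lay above it. Of 20 markers of fibroblasts, endothelium, macrophages and pericytes, 0 passed the adjusted threshold with or without the replicate number in the fit, and 8 lay under that percentile.

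Without the replicate number in the fit, limma called 0 of the 18132 genes (0%) at an adjusted p under 0.05, and 0 of the 10 YAP/TEAD target genes. With it as a block, 122 genes (0.673%) were called, 64 of them higher in Epi (0.353%) and 58 lower (0.32%). Of the target genes 1 was called, ANKRD1, which was higher. All 10 genes had means above the 30th percentile. The median log2 fold change (Epi over PBS) of the 10 was 0.17 against -0.016 for all genes, and 7 of the 10 were above 0 against 45.7% of all genes. The genes did not move as 1 group: ANKRD1, AMOTL2 and AJUBA had the highest values, AXL, AMOTL1 and CCN2 lay below 0, and CCN1, LATS2, CRIM1 and TEAD1 had intervals without the block that reached from below -0.4 to above 0.6. The median rested on single tumors: it was 0.03 without Epi replicate 3 and 0.35 without Epi replicate 1. In such bulk samples fewer cells that express a gene and less of its RNA per cell cannot be told apart.

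**Figure D1:**
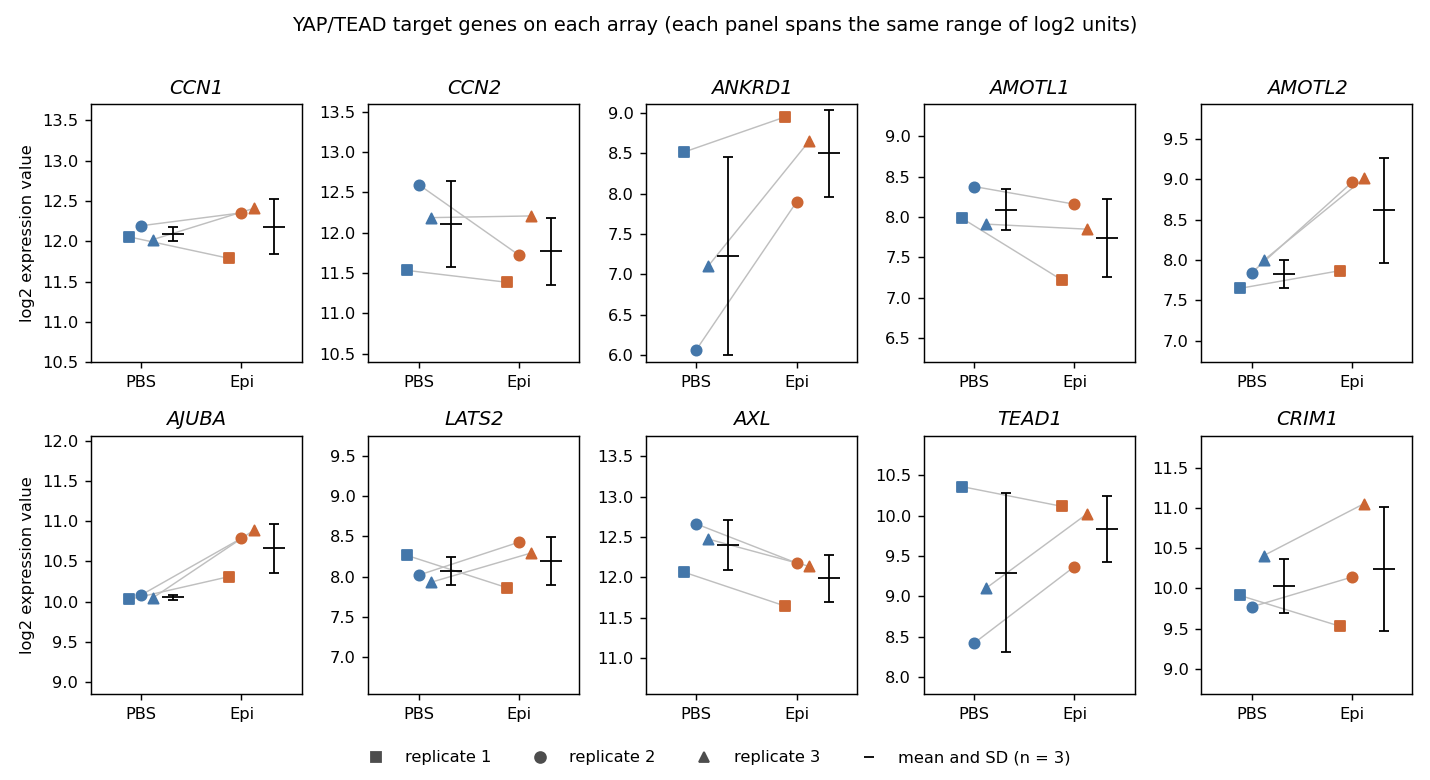
Log2 level of each of the 10 genes on the 3 PBS and 3 Epi arrays, 1 panel per gene. Marker shapes give the replicate number, grey lines join arrays of 1 number, and the black bar is the mean with its SD (n = 3). AJUBA is the gene whose Epi arrays (10.31 to 10.89) all lie above its PBS arrays (10.03 to 10.08), and in ANKRD1 and TEAD1 the PBS array of replicate 1 is the highest of its group.

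CCN1 (CYR61) and CCN2 (CTGF) encode secreted matricellular proteins that bind integrins, and both are widely used readouts of YAP activity. CCN1 was at 12.05, 12.19 and 12.02 in PBS replicates 1, 2 and 3 and at 11.79, 12.35 and 12.41 in Epi replicates 1, 2 and 3. The Epi arrays thus lay on both sides of the PBS arrays. Its log2 fold change was 0.09 with an SE of 0.25 (95% interval -0.49 to 0.67), and -0.27, 0.16 and 0.39 within replicates 1, 2 and 3. CCN2 was at 11.53, 12.60 and 12.19 in PBS and at 11.38, 11.72 and 12.21 in Epi, so that the groups overlapped over most of their range. Its log2 fold change was -0.33 with an SE of 0.34 (95% interval -1.12 to 0.45), most of which came from replicate 2 (-0.88, against -0.15 and 0.02 in replicates 1 and 3). An increase of up to 0.45 lies within that interval, and the value was -0.62 without PBS replicate 1 and -0.089 without PBS replicate 2.

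ANKRD1 encodes a nuclear ankyrin repeat protein and is a direct TEAD target. It was at 8.52, 6.06 and 7.10 in PBS replicates 1, 2 and 3 and at 8.95, 7.90 and 8.65 in Epi replicates 1, 2 and 3. The Epi array was the higher one in 3 of 3 replicate pairs, while the groups overlapped, since PBS replicate 1 lay above Epi replicate 2. The means were 7.23 ± 1.23 and 8.50 ± 0.54 (SD, n = 3), a 2.41-fold difference and a log2 fold change of 1.27. The differences within replicates 1, 2 and 3 were 0.43, 1.84 and 1.54. Without the block the SE was 0.57 (95% interval -0.04 to 2.59, limma adjusted p = 1.00). With the block ANKRD1 rose, with an SE of 0.25 (95% interval 0.74 to 1.80, limma adjusted p = 0.0244). With the block and without replicate 2 the log2 fold change was 0.99 (limma adjusted p = 0.294), without replicate 3 it was 1.14 (limma adjusted p = 0.0352), and without replicate 1 it was 1.69 (limma adjusted p = 0.0123). Without the block, leaving out PBS replicate 2 gave 0.69 and leaving out PBS replicate 1 gave 1.92. ANKRD1 has 1 probeset on the array, so that no second reading of it was at hand, and over all 44988 probesets its adjusted p with the block was 0.217.

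**Figure D2:**
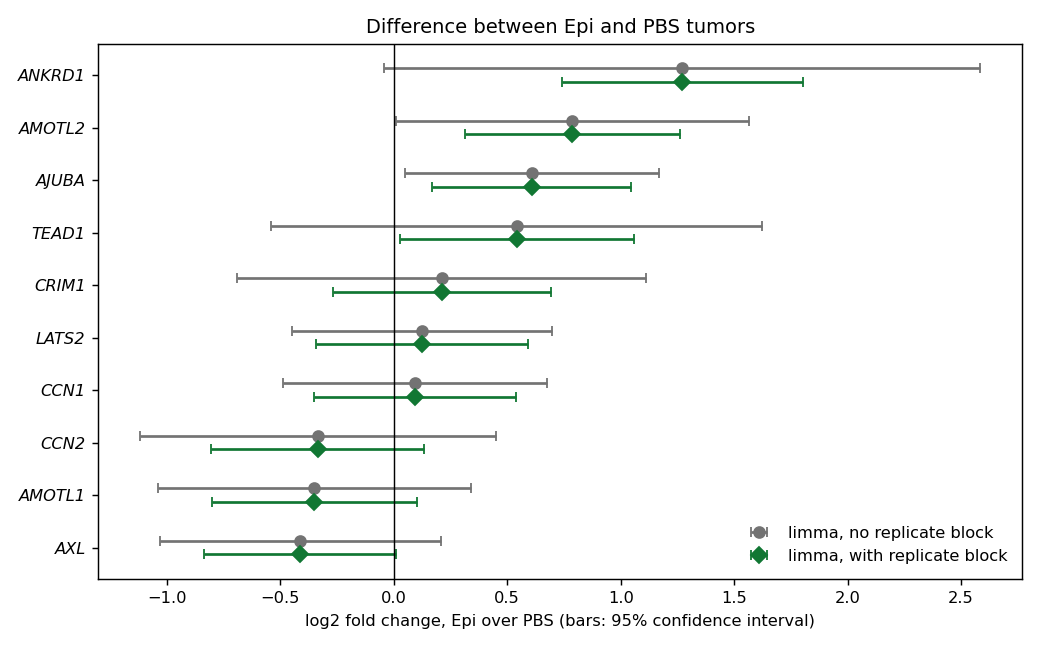
Log2 fold change (Epi over PBS) of each of the 10 genes with its 95% interval, from limma without (circles) and with (diamonds) the replicate number as a block. The interval of ANKRD1 runs from -0.04 to 2.59 without the block and from 0.74 to 1.80 with it, and AXL, AMOTL1 and CCN2 lie below 0.

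AMOTL1 and AMOTL2 encode angiomotin-like proteins of cell junctions that hold YAP in the cytoplasm, and both are YAP targets as well. They lay on opposite sides of 0. AMOTL2 was at 7.65, 7.84 and 7.996 in PBS and at 7.87, 8.97 and 9.01 in Epi, with Epi replicate 1 inside the PBS range and the other Epi arrays above it. Its means were 7.83 ± 0.17 and 8.62 ± 0.65 (SD, n = 3), a 1.73-fold difference, and the log2 fold change of 0.79 had an SE of 0.34 (95% interval 0.009 to 1.56, limma adjusted p = 1.00). With the block the SE was 0.22 and limma's adjusted p was 0.198, so AMOTL2 did not pass. Within replicates 1, 2 and 3 the differences were 0.22, 1.12 and 1.02, and with replicates 2 and 3 alone and the block it passed (limma adjusted p = 0.0369).

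AMOTL1 was at 7.98, 8.38 and 7.91 in PBS and at 7.21, 8.16 and 7.85 in Epi. Each Epi array lay below the PBS array of its number, by -0.77, -0.22 and -0.06, but the groups overlapped. The log2 fold change was -0.35 with an SE of 0.30 (95% interval -1.04 to 0.34) and did not pass with or without the block, and it was -0.087 without Epi replicate 1. The difference between AMOTL1 and AMOTL2 was not tested.

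AJUBA encodes a LIM protein that binds LATS at junctions and limits its activity. It was at 10.03, 10.08 and 10.05 in PBS and at 10.31, 10.79 and 10.89 in Epi, and it was the 1 gene of the 10 whose groups did not overlap. Over all genes 0.982% had all Epi arrays above all PBS arrays and 2.22% had them all below, and 0 of the 10 target genes were of the second kind. Its log2 fold change was 0.61, a 1.52-fold difference, with an SE of 0.24 (95% interval 0.05 to 1.17, limma adjusted p = 1.00). With the block the SE was 0.21 and limma's adjusted p was 0.418. Within replicates 1, 2 and 3 the differences were 0.28, 0.71 and 0.84.

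LATS2 encodes a kinase that phosphorylates YAP and is itself a YAP target, which closes a negative feedback loop. It was at 8.26, 8.02 and 7.93 in PBS and at 7.86, 8.43 and 8.29 in Epi. The group means of 8.07 ± 0.17 and 8.19 ± 0.30 (SD, n = 3) differed by less than the spread between the Epi arrays. Its log2 fold change was 0.12 with an SE of 0.25 (95% interval -0.45 to 0.70), made up of -0.40 in replicate 1 and 0.41 and 0.36 in replicates 2 and 3.

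AXL encodes a receptor tyrosine kinase for the ligand GAS6, found at high level in mesenchymal breast cancer cells. It was at 12.06, 12.66 and 12.47 in PBS and at 11.64, 12.18 and 12.14 in Epi. Every Epi array lay below the PBS array of its number, by -0.42, -0.49 and -0.34, and the 3 differences were closer to each other than those of the other 9 genes. The groups overlapped, because PBS replicate 1 lay below Epi replicates 2 and 3. The log2 fold change of -0.41 had an SE of 0.27 (95% interval -1.03 to 0.21, limma adjusted p = 1.00), and with the block an SE of 0.20 (95% interval -0.84 to 0.008, limma adjusted p = 0.981).

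CRIM1 encodes a membrane protein with cysteine-rich repeats that binds BMPs. It was at 9.91, 9.77 and 10.41 in PBS and at 9.53, 10.14 and 11.05 in Epi, so that the lowest and the highest arrays were both Epi. Its log2 fold change was 0.21 with an SE of 0.39 (95% interval -0.69 to 1.11), and the differences within replicates 1, 2 and 3 were -0.38, 0.37 and 0.65.

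TEAD1 encodes 1 of the DNA-binding partners of YAP and TAZ. It was at 10.36, 8.42 and 9.10 in PBS and at 10.11, 9.37 and 10.02 in Epi. Replicate 1 was the highest array of both groups, and the Epi array lay below the PBS array there and above it in the other pairs (-0.25, 0.95 and 0.92). The log2 fold change was 0.54 with an SE of 0.47 (95% interval -0.54 to 1.62), and with the block an SE of 0.24 (95% interval 0.03 to 1.06, limma adjusted p = 0.874). It was 0.10 without PBS replicate 2 and 1.08 without PBS replicate 1.

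**Figure D3:**
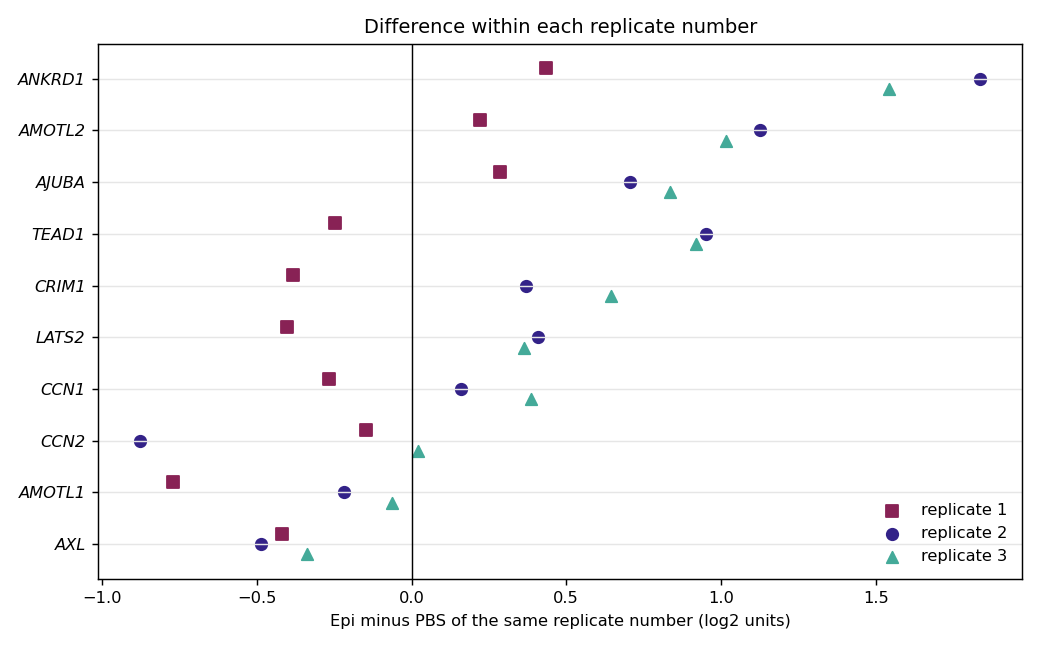
Difference Epi minus PBS (log2) within replicates 1, 2 and 3 for each of the 10 genes. The median over the 10 genes is -0.26 in replicate 1, 0.39 in replicate 2 and 0.52 in replicate 3.

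By replicate number, 3 of the 10 genes (ANKRD1, AMOTL2 and AJUBA) were higher in Epi in 3 of 3 pairs, against 5.71% of all genes, and 2 (AMOTL1 and AXL) were lower in 3 of 3 pairs, against 13.3% of all genes. At an unadjusted p under 0.05, 2 of the 10 were higher in Epi without the block (AMOTL2 and AJUBA), against 0.529% of all genes, and 4 with it (ANKRD1, AMOTL2, AJUBA and TEAD1), against 2.12%. With replicates 2 and 3 alone and the block, 2 of the 10 passed the adjusted threshold, ANKRD1 and AMOTL2, both higher in Epi, against 0.695% of all genes.

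Replicate 1 differed from the other 2 numbers across the list. The median difference over the 10 genes was -0.26, 0.39 and 0.52 in replicates 1, 2 and 3, and over all genes it was 0.039, -0.047 and -0.080. In 8 of the 10 genes the differences of replicates 2 and 3 both lay above that of replicate 1. The share of all genes with that order was not computed, so this count has no background beside it. A term for the interaction of treatment with replicate 1 was added after these values were seen. Its limma adjusted p was between 0.351 and 0.993 over the 10 genes, 0 of the 18132 genes passed, and at an unadjusted p under 0.05 it picked out 2 of them (AMOTL2 and LATS2), against 14.1% of all genes. The difference between the replicates is thus not shown for any 1 gene. The part in it of the 3′ to 5′ signal, the lower medians or the processing of the replicate 1 arrays was not tested.

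**Figure D4:**
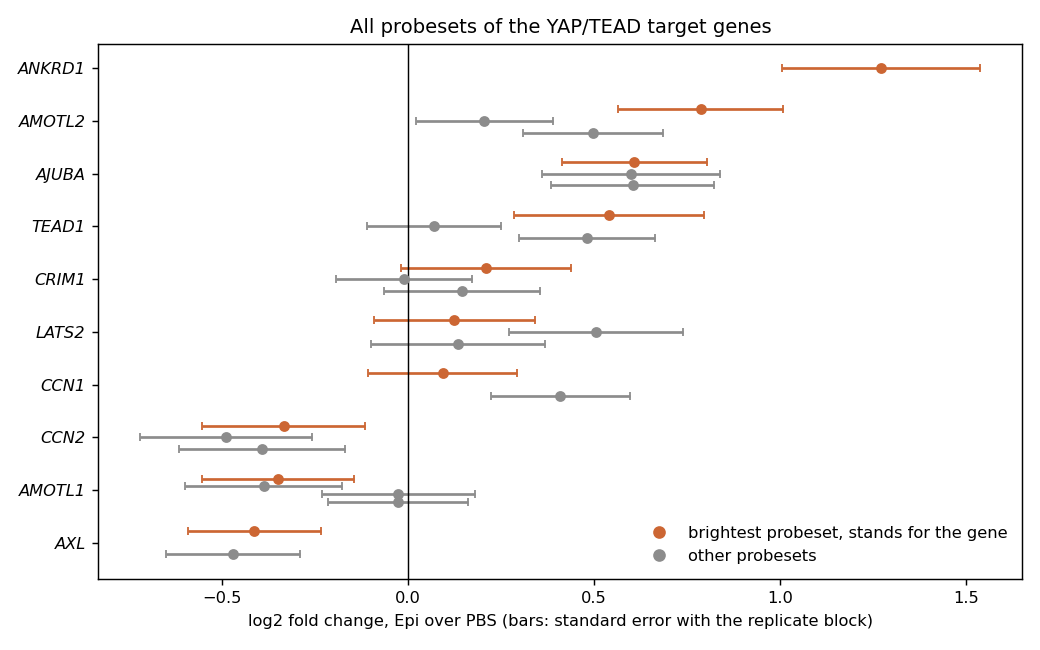
Log2 fold change (Epi over PBS) of all 27 probesets of the 10 genes, grouped by gene, with the probeset that stands for the gene in orange and bars for the standard error with the replicate block. Of the 17 other probesets, 16 have the sign of the probeset that stands for their gene, the exception being a CRIM1 probeset at -0.011.

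For 9 of the genes there were further probesets, and in 16 of these 17 the log2 fold change had the sign of the gene's first probeset. The second CCN1 probeset had a log2 fold change of 0.41 and was higher in Epi in 3 of 3 pairs (0.23, 0.64 and 0.36), unlike the first. The other CCN2 probesets gave -0.49 and -0.39, the other AXL probeset -0.47, and both other AJUBA probesets 0.60. In 1 of these AJUBA probesets the groups did not overlap either. In the brighter one they overlapped, and replicate 1 was slightly lower in Epi (-0.05). The other AMOTL2 probesets gave 0.50 and 0.21, the other LATS2 probesets 0.50 and 0.13, and the other TEAD1 probesets 0.48 and 0.07. Of the other AMOTL1 probesets, 1 gave -0.39 and the remaining 2 gave -0.026 each, so these stayed close to 0. Over all 27 probesets, 9 had an unadjusted p under 0.05 with the block, against 4.54% of the 44988 probesets. The 9 included both AXL probesets, which were lower in Epi, and the rest were higher. The probeset that stands for TEAD1 was not among them in this fit (limma unadjusted p = 0.0628). Probesets of 1 gene share its transcripts and are not separate replicates.

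The coactivators and the other TEAD factors were measured on the same arrays. YAP1 was at 9.60, 9.03 and 9.59 in PBS and at 8.90, 9.41 and 10.08 in Epi, with a log2 fold change of 0.057 (SE 0.34) and differences of -0.70, 0.38 and 0.49 within replicates 1, 2 and 3. WWTR1, which encodes TAZ, was at 9.19, 9.89 and 10.68 in PBS and at 8.24, 9.45 and 10.25 in Epi. Each Epi array lay below the PBS array of its number, by -0.95, -0.44 and -0.43, and the log2 fold change of -0.61 had an SE of 0.54 without and 0.21 with the block (limma adjusted p = 0.421 with it). That value was -0.07 without Epi replicate 1 and -1.08 without Epi replicate 3. TEAD2, TEAD3 and TEAD4 had log2 fold changes of -0.29, -0.30 and -0.12. In replicate 1 TEAD3 was higher in Epi (0.34), and in all other pairs these 3 genes were lower. Of the 9 genes of this list, which also holds the TEAD cofactors VGLL1 to VGLL4, 2 were above 0, the median was -0.12, and 0 passed with or without the block on all 6 arrays.

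**Figure D5:**
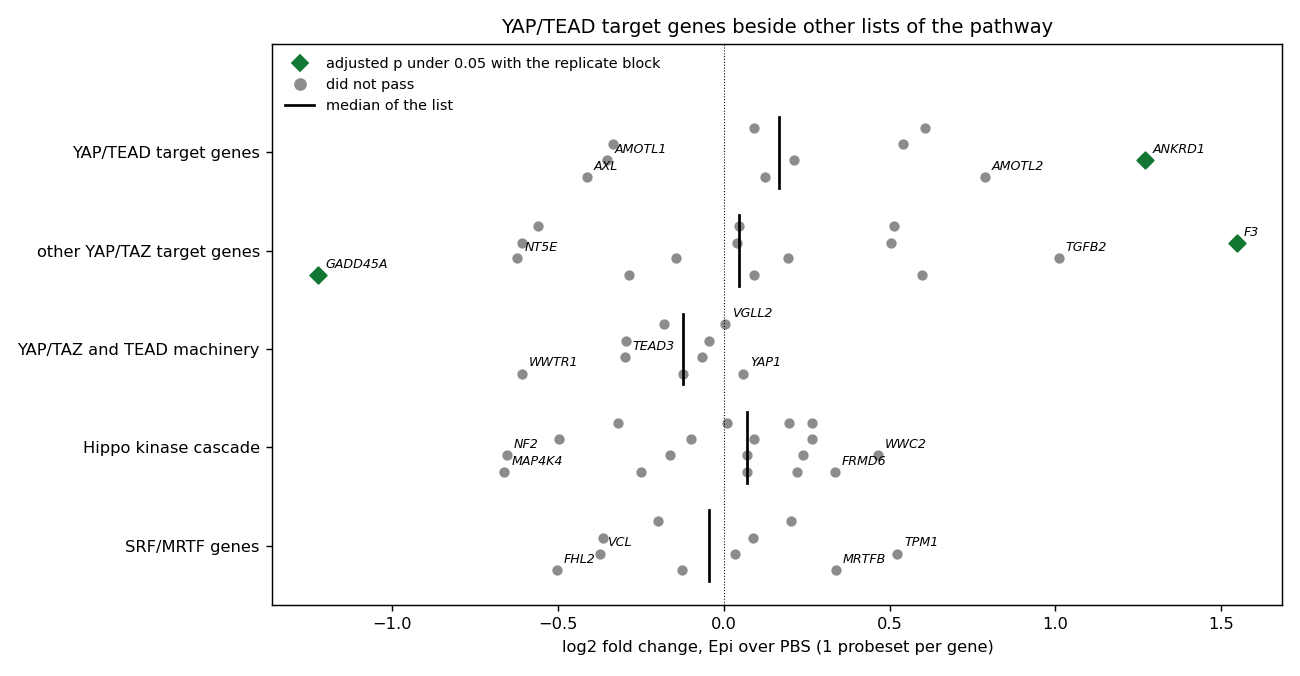
Log2 fold change (Epi over PBS) of the 10 YAP/TEAD target genes and of the genes of 4 related lists, 1 point per gene, with the median of each list as a black line and diamonds for genes called with the block. F3 (1.55) and GADD45A (-1.22) are the genes outside the 10 that passed with the replicate block.

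In the Hippo kinase cascade 11 of 18 genes were above 0, the median was 0.07, and 0 passed with or without the block on all 6 arrays. WWC2, an activator of LATS, had the highest value (0.47, SE 0.42), made up of -0.60, 0.94 and 1.06 in replicates 1, 2 and 3. It was 0.06 without Epi replicate 3, and with replicates 2 and 3 alone and the block it was 1.00 and passed (limma adjusted p = 0.0463). MAP4K4, a kinase upstream of LATS, had the lowest value (-0.66, SE 0.34; -1.07, -0.83 and -0.085 in replicates 1, 2 and 3). NF2 (merlin, which recruits LATS to the membrane) and LATS1, the paralog of LATS2, were the genes of this list whose groups did not overlap, 2 of 18, both lower in Epi, against 2.22% of all genes. NF2 was named after its values were seen. It was at 7.61, 8.23 and 8.09 in PBS and at 7.31, 7.12 and 7.54 in Epi, with a log2 fold change of -0.65 (SE 0.26, limma adjusted p with the block 0.375). LATS1 had a log2 fold change of -0.50 (SE 0.25, limma adjusted p with the block 0.681) at a mean of 4.49, below the 30th percentile of all genes. The lack of overlap in NF2 and LATS1 was read from 1 probeset per gene. Averaging over probesets gave smaller changes of the same sign in the named genes of this list. NF2 (7 probesets) was then at -0.35 and LATS1 (3) at -0.14. MAP4K4 (5) was at -0.34 and WWC2 (4) at 0.23.

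Among 15 further genes described as YAP or TAZ targets, 9 were above 0 and the median was 0.05. With the block 1 of them was called higher, F3, against 0.353% of all genes, and 1 lower, GADD45A, against 0.32%. In 1 of the 15 all Epi arrays lay above all PBS arrays, against 0.982% of all genes, and in 2 below, against 2.22%. F3 encodes tissue factor, which starts the clotting cascade on the cell surface. It was at 11.25, 9.61 and 10.69 in PBS and at 12.07, 11.73 and 12.39 in Epi, with no overlap, and rose 2.92-fold (log2 fold change 1.55, SE with the block 0.24, limma adjusted p = 0.00652). GADD45A, a growth arrest and DNA damage gene, was at 8.44, 9.02 and 9.03 in PBS and at 7.34, 7.50 and 7.98 in Epi, again with no overlap. With the block its log2 fold change was -1.22 (SE 0.21, limma adjusted p = 0.00785), so it fell. With the block and without replicate 2 it no longer passed (-1.07, limma adjusted p = 0.149), while F3 passed without any 1 of the replicates. Without the block the adjusted p of both was 1.00. Both genes stand in the study's own list of genes altered on these arrays, so they are not independent evidence, while none of the 10 target genes stands in it. For its array genes the study states a fold change over 2 and Q under 0.05. Among the 10, only ANKRD1 (2.41-fold) differed by more than that fold here, so the absence of the others would follow from such a cut. ASAP1, named after its values were seen, was the other of the 15 genes with no overlap, lower in Epi by -0.29 (SE 0.23).

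Genes of SRF and its coactivators MRTF, which respond to the actin cytoskeleton as YAP does, had 5 of 10 members above 0, a median of -0.05 and 0 calls with or without the block. TPM1, an actin-binding tropomyosin, had the highest value (0.52, SE 0.25) and was the 1 gene of this list whose groups did not overlap, against 0.982% of all genes higher with no overlap. FHL2, a LIM cofactor, had the lowest (-0.50, SE 0.30). With the mean of a gene's probesets TPM1 (9 probesets) gave 0.16 and FHL2 (3) gave -0.41.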

How the data were processed

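The log2 values of the 6 PrimeView arrays, 1 per probeset, are those the authors deposited. RMA and Affymetrix Expression Console are named in the submitters' processing notes, with no version given. No genome build is given in the sources used here for the array. Of 49395 probesets, 102 were controls, 44988 had 1 gene in GEO's platform annotation, 1832 had several and 2473 were not listed, and only those with 1 gene were used. Scanner files were not used here.

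The contrast Epi minus PBS was fitted by limma 3.58.1 under R 4.3.3 (functions lmFit and eBayes, two-sided), with Benjamini-Hochberg adjustment over 18132 genes at 0.05, 95% intervals and no block. The replicate block was an alternative. The numbers come from the titles, and the deviations of same-numbered arrays from their group means correlated at 0.630, 0.627 and 0.453, so they were taken as pairs. PBS replicate 3 and Epi replicate 2 also correlated at 0.523, and replicate 1 arrays that stand apart make the other arrays of a group deviate together, so the check does not settle what a number stands for. Other alternatives were leaving out arrays or pairs, a term for replicate 1, the methods' t-test, a variance trend, weights per array, median centring or quantile normalization of the arrays, leaving out dim genes, the mean of a gene's probesets and all probesets. The interaction was added after the values were seen. The fits were tested on simulated data.

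No measured value entered the rule that gave the 10 genes. They, the related lists and the tests were still chosen with earlier results of these data known. All 10 are named, and of the other lists the genes that passed with or without the block, YAP1, WWTR1, the other TEAD factors, LATS1, and the highest and lowest gene of each list. The number of arrays limits the precision.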

Additional observations from a re-analysis of the deposited data

How the results depend on the processing

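Over 22 alternatives the median log2 fold change of the 10 genes stayed within its spread over the pairs (SD 0.41). That spread is wider than the median of 0.17 itself, so this check does not show that the median is stable. The median ranged from -0.0014 (without replicate 3, with the replicate block) to 0.45 (without replicate 1). With 3 arrays a group, differences of the size of most of these genes' standard errors were not detectable.

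The replicate block moved the genes called from 0 to 122 and the target genes called from 0 to 1. With the block and without replicates 1, 2 or 3 in turn, 162, 66 and 129 genes were called, and 2, 0 and 1 target genes. With the block, quantile normalization gave 56 genes and 0 target genes (ANKRD1 adjusted p = 0.0603), and the mean of a gene's probesets gave 81 and 1. A term for replicate 1 against the rest gave 40 genes and 0 target genes. Leaving out single arrays without the block gave 0 genes each, and leaving out replicate 1 gave 16, with 0 target genes in all of these. Array weights, whose estimation did not converge, gave 2352 genes and 7 target genes. ANKRD1 was called in 5 of 21 alternatives, with log2 fold changes of 0.69 to 1.92, F3 in 7 (1.09 to 1.91) and GADD45A in 7 (-1.46 to -1.07). With all 6 arrays the block changed no other call of a named gene, and without replicate 1 it also changed those of AMOTL2 and WWC2.

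Values near 0 changed sign. Leaving out arrays without the block, CCN1 ranged from -0.020 to 0.29, CRIM1 from -0.19 to 0.57, YAP1 from -0.25 to 0.43, TEAD3 from -0.72 to 0.060 and TEAD4 from -0.23 to 0.0063. With the block, LATS2 was -0.019 and YAP1 -0.10 without replicate 2, and CCN1 was -0.054, CRIM1 -0.0066 and YAP1 -0.16 without replicate 3. With array weights AMOTL1 was 0.17, CRIM1 -0.15, YAP1 -0.096 and TEAD4 0.098. The cause was not tested.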
